A study of Mus musculus with 8 samples.

Results

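The 30 genes studied here encode subunits of the Sin3, NuRD, CoREST/REST and NCoR corepressors, and were read in embryonic mouse kidneys whose ureteric bud lacked HDAC1 and HDAC2. The members were taken as a named list of subunits and found through the RefSeq accession of each probe. All 30 genes had a probe on the array, and together they held 57 of its 41174 probes (17305 named genes). The rule that finds their probes uses no measured value.

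Class I histone deacetylases do not bind DNA by themselves. HDAC1 and HDAC2 sit on scaffold proteins in large complexes, and Sin3, NuRD and CoREST are the best known of these, while NCoR works mainly with HDAC3. DNA-binding repressors such as REST bring the complexes to their target genes, and the other subunits read histone or DNA marks, move nucleosomes or remove histone methyl groups. In the developing kidney the deacetylases are needed in both the branching ureteric bud and the nephron progenitors around it.

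The mutant embryos carried the genotype UB HDAC1,2-/-, with UB for ureteric bud, the epithelial tree that forms the collecting ducts. The controls were wild type embryos. Both were of a CD1 C57BL/6 mix and of age E13.5, and RNA came from the whole kidney rudiment. The Cre driver and the number of embryos behind each RNA are not given in the sources used here. Each of the 4 biological replicates set 1 mutant RNA against 1 wild type RNA on 2 two-colour Agilent arrays with the dyes exchanged, which made 8 arrays. Each array gives the log ratio of 2 RNAs, so values here are log2 ratios, labelled mutant over labelled wild type. The ratios of a replicate's 2 dye orientations were averaged, and ± gives the SD over the 4 replicates.

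The direction of these ratios rests on the dye labels alone. In the authors' deposited table, which states no direction, all 309 entries that could be tied to 1 probe had the opposite sign, and 248 of them lay within 0.01 of the sign-turned scanner ratio. Hdac2, the targeted gene that could be read, was not lower on average in the RNA labelled mutant. Its probe stood at 0.60, 0.60, 0.74 and -0.61 in replicates 1 to 4 (mean 0.33 ± 0.63, SD, n = 4; exact sign-flip permutation p = 0.5), so it was higher in the RNA labelled mutant in 3 of 4 replicates. Whether that probe lies in the deleted part is not given in the sources used here. The deletion was in the ureteric bud and the RNA came from the whole kidney rudiment, so this probe cannot settle the direction. Hdac1 was not analysed here. Every direction below is therefore that of the RNA labelled mutant against the RNA labelled wild type, and turning the sign would turn all of them together.

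Replicate 2 stood apart from the others. The SD of the log2 ratios over all probes was 0.808 and 0.647 on its arrays, against 0.26 to 0.377 on the other 6. Its 2 dye orientations nonetheless matched best. Over all probes, the orientations correlated at r = 0.26, 0.56, 0.21 and 0.41 in replicates 1 to 4. After normexp and loess r was 0.09, 0.67, -0.28 and -0.23, so the orientations of replicates 3 and 4 then ran against each other. Between 79.2% and 97.1% of probes were well above background per array and channel, and no spot was saturated. All 57 member probes were well above background in both channels on all 8 arrays, so none of their ratios is a bound. Replicates 1 and 2 shared 1 slide, and replicates 3 and 4 the other. In whole-kidney RNA, fewer cells of a type and less RNA per cell cannot be told apart.

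No member probe passed limma's test after Benjamini-Hochberg adjustment over the 39522 probes kept (0 of 57). The smallest adjusted p of a member was 0.621. Over all probes 7 passed, which is 0.0177%. At an unadjusted p under 0.05 there were 6 of the 57 member probes, against 6.01% of all probes. Of the 6, 5 were lower in the RNA labelled mutant (background 2.86%) and belonged to Rest, Hmg20b, Chd4 (a pair of probes) and Suds3. The other was higher and belonged to Mta2 (background 3.15%). Without replicate 2, 5 member probes had an unadjusted p under 0.05 (Rest, Hmg20b, Arid4a and Gatad2b lower, Mta2 higher), against 7.93% of all probes. With normexp and loess 9 member probes had such a p, all lower in the RNA labelled mutant, against 5.93% of all probes; they belonged to Hmg20b, Rest, Chd4 (a pair), Chd3, Rbbp4, Arid4a, Ncor1 and Gatad2b, and none passed limma's adjusted test (smallest adjusted p 0.619).

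Sequences around the start of transcription are shown for Hmg20b and Chd4, lower in the RNA labelled mutant at an unadjusted p under 0.05, and for Mta2, the one higher at that p. They were picked after their values were seen. They come from RefSeq on GRCm38.p6 and run from 250 bases before to 50 bases after the most downstream start. Hmg20b has 3 starts listed, Chd4 has 2 and Mta2 has 1, so other windows exist for Hmg20b and Chd4. Capitals mark the GC box GGGCGG, read on either strand (CCGCCC on the other). Hmg20b lies on the minus strand (chr10:81350377-81350676), Chd4 on the plus strand (chr6:125095913-125096212) and Mta2 on the plus strand (chr19:8941670-8941969).
Hmg20b: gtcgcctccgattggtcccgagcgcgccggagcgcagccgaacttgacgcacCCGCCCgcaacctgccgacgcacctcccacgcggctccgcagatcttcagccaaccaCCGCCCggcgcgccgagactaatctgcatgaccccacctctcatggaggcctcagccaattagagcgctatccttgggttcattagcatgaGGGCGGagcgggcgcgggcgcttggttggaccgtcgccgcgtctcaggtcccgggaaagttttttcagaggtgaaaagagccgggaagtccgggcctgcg
Chd4: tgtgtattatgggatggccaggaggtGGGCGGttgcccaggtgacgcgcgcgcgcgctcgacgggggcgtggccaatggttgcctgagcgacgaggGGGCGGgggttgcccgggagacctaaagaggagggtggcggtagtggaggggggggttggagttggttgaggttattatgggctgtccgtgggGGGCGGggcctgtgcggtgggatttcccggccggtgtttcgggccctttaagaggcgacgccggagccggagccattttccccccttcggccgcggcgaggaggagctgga
Mta2: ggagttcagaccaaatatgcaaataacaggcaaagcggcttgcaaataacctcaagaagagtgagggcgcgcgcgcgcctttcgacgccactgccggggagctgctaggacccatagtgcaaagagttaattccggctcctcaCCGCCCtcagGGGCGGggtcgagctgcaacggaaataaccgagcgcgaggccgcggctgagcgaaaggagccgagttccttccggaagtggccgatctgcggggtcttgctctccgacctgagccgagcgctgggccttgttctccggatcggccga
The Hmg20b and Chd4 windows each hold 3 GC boxes and the Mta2 window holds 2. That of Suds3, also lower at an unadjusted p under 0.05 but not printed, holds 1. For Rest, lower at that p too, no window was found. Sequences were found for 24 of the 30 members, and 18 of these windows (75%) hold a GC box, against 45.2% of the 17492 protein-coding windows in the same table. The median member window has 27 CpG dinucleotides, against 12 for protein-coding genes. All members were well above background here, while the protein-coding windows were not limited to such genes. An E-box, CACGTG, is in 2 member windows (Rbbp4 and Rcor2; 8.33%), against 7.65%. A match describes the letters of a window and is not a binding site. All 3 windows printed hold the GC box, those of the lower genes and that of the higher one.

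**Figure D1:**
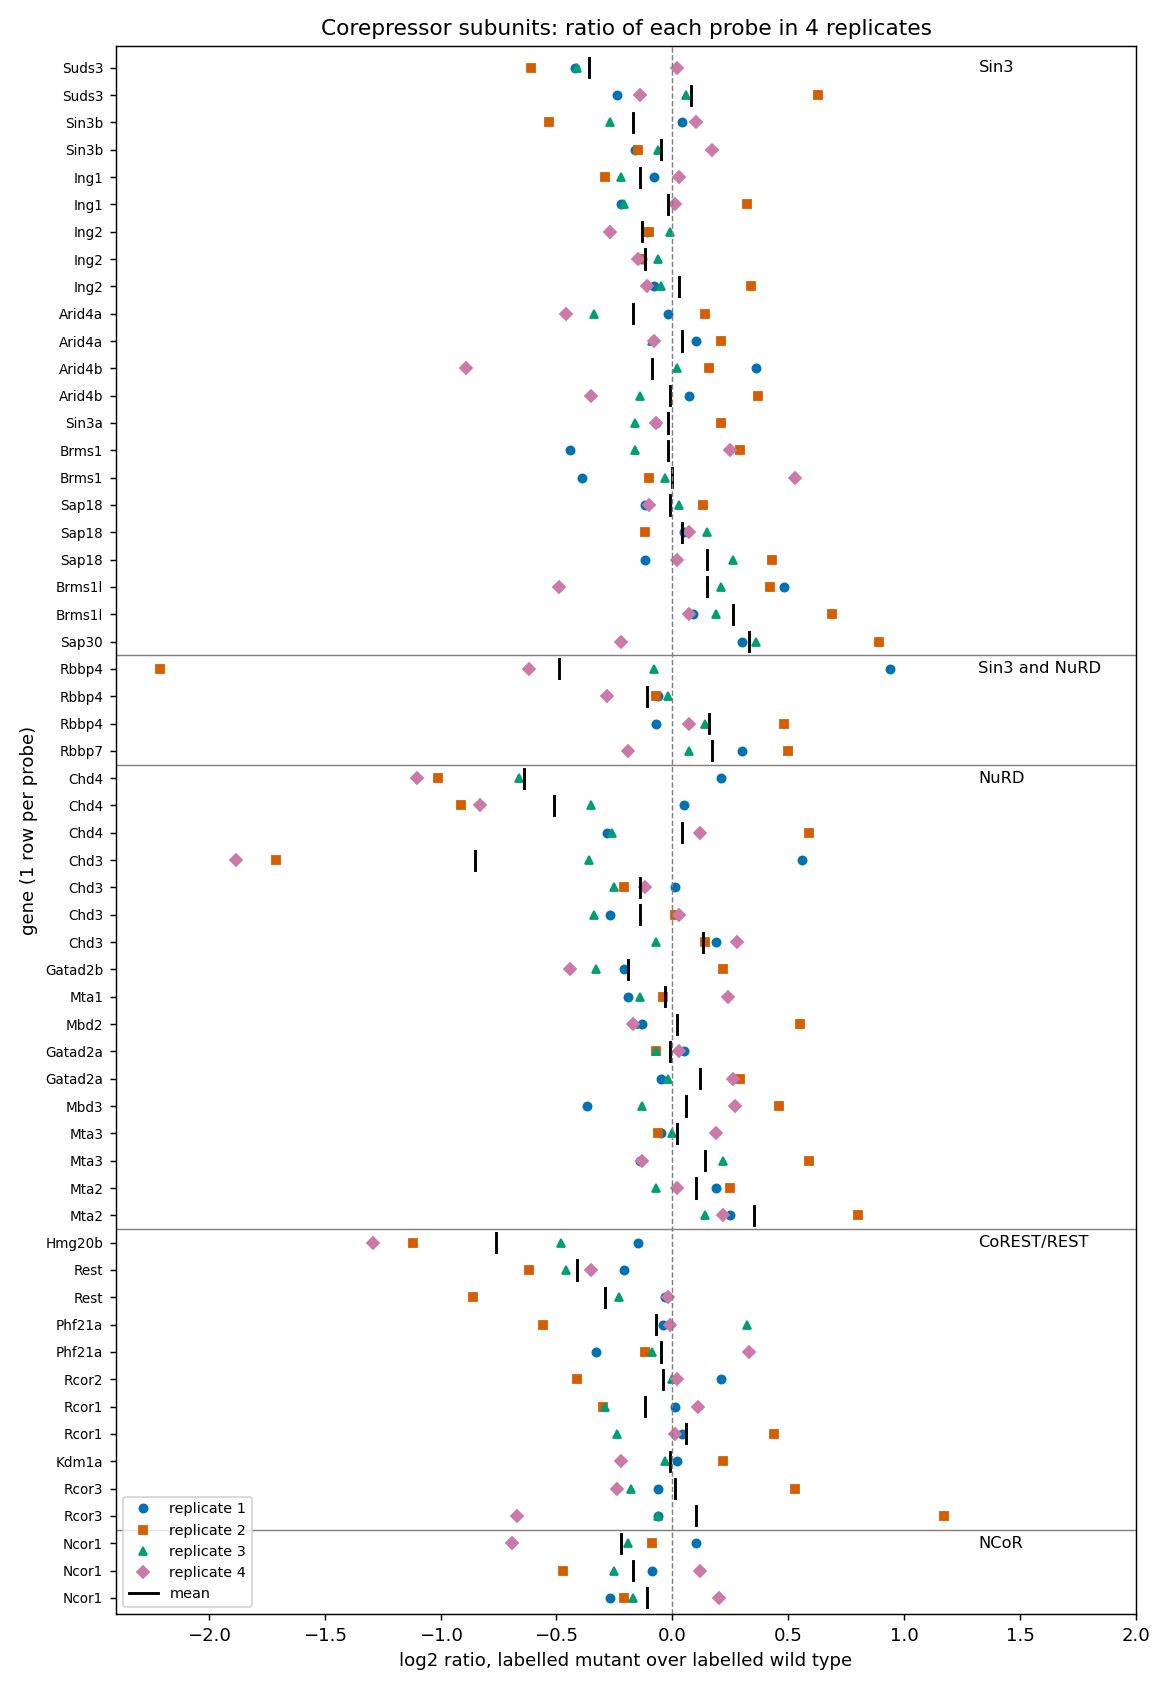
Log2 ratio (labelled mutant over labelled wild type, x axis) of each of the 57 member probes, grouped by complex, with 1 point per replicate and the mean of the 4 replicates. Most means lie close to 0, the Hmg20b and Chd4 points spread to the left, and the lowest mean belongs to a Chd3 probe at -0.85.

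REST is the zinc finger repressor of neuronal genes, and CoREST is the partner complex that joins it to HDAC1 and HDAC2. Rest had 2 probes, both below 0 in all 4 replicates. Probe A_52_P31687 read -0.21, -0.62, -0.46 and -0.35, a mean of -0.41 ± 0.17 (SD, n = 4; SE 0.11; unadjusted p = 0.00834, limma adjusted p = 0.621). The replicates lay close together, and the unadjusted p stayed under 0.05 with each replicate left out in turn (largest p 0.0482). Its channel signals overlapped between the labels: log2 signals ran from 12.14 to 12.44 in the RNA labelled mutant and from 12.30 to 12.83 in the other, and the labelled mutant was the lower within each replicate. Probe A_51_P348456 of Rest read -0.03, -0.86, -0.23 and -0.02 (mean -0.29 ± 0.39, SD, n = 4). That mean leaned on replicate 2 and was -0.09 without it. In replicate 1 of this probe the labelled mutant was the higher after loess (log2 signal 11.11 against 11.09).

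Hmg20b encodes an HMG-box subunit of the CoREST complex and was the furthest from 0 of the single-probe members. Its probe read -0.15, -1.12, -0.48 and -1.29. The mean was -0.76 ± 0.53 (SD, n = 4; SE 0.21; unadjusted p = 0.0106, limma adjusted p = 0.662). All 4 replicates were below 0, with replicates 2 and 4 far lower than replicate 1. With 1 replicate left out, the mean lay between -0.96 and -0.59, and the largest unadjusted p was 0.0444. Its signals overlapped between labels too, at 11.88 to 12.87 for the labelled mutant and 12.75 to 13.49 for the labelled wild type. In replicate 1 the labelled mutant was the higher after loess (12.87 against 12.84).

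The enzyme and scaffold of the complex stayed near 0. Kdm1a, the lysine demethylase, read 0.02, 0.22, -0.03 and -0.22 (mean -0.01 ± 0.18, SD, n = 4). Rcor1, the scaffold after which CoREST is named, had probe means of -0.12 and 0.06. Its relatives Rcor2 and Rcor3 stood at -0.04 and at 0.10 and 0.01. Replicate 2 of a Rcor3 probe was at 1.17 and replicate 4 at -0.67, so that mean hides a wide spread (SD 0.77). Phf21a, whose protein reads the unmodified histone H3 tail, had probe means of -0.07 and -0.05. Over the 11 probes of CoREST and REST, 8 means were below 0, and the median was -0.05 ± 0.13 (SD over 4 replicates), beside 0.02 over all probes. It was -0.23 with the labelled mutant in Cy5 only and 0.06 with it in Cy3 only.

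NuRD joins histone deacetylation to the remodelling ATPases Chd3 and Chd4. Chd4 is the main ATPase of the complex, and a pair of its probes read alike while the other did not. Probe A_51_P454280 read 0.21, -1.01, -0.66 and -1.10 (mean -0.64 ± 0.60, SD, n = 4; unadjusted p = 0.0314, limma adjusted p = 0.757). Probe A_52_P298043 read 0.05, -0.91, -0.35 and -0.83 (mean -0.51 ± 0.45, SD, n = 4; unadjusted p = 0.0305, limma adjusted p = 0.757). Both were slightly above 0 in replicate 1 and below 0 in the other 3 replicates. The remaining probe, A_52_P58281, read -0.28, 0.59, -0.26 and 0.12 (mean 0.04 ± 0.41, SD, n = 4), with signs opposite to the others in replicates 1, 2 and 4. Without replicate 2 the means were -0.52 and -0.38, and limma's unadjusted p was 0.0856 and 0.0751. It was above 0.05 without replicate 3 or without replicate 4 too (largest 0.124 and 0.12). Without replicate 1, where both probes were above 0, the means were -0.92 and -0.69 and limma's unadjusted p was 0.00144 and 0.00768.

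Chd3, the related ATPase, had the widest range of probe means of any member, 0.98. Probe A_51_P416126 read 0.56, -1.71, -0.36 and -1.88 (mean -0.85 ± 1.16, SD, n = 4). Its replicates span both signs, and limma's unadjusted p was 0.0895. The mean was -1.32 without replicate 1 (limma unadjusted p = 0.00964), -0.56 without replicate 2 and -0.50 without replicate 4. The other Chd3 probes lay closer to 0. Probe A_52_P146485 read 0.01, -0.21, -0.25 and -0.12 (mean -0.14 ± 0.12, SD, n = 4; unadjusted p = 0.189, limma adjusted p = 0.757). Probe A_52_P14810 read -0.27, 0.01, -0.34 and 0.03 (mean -0.14 ± 0.19), and A_51_P396284 read 0.19, 0.14, -0.07 and 0.28 (mean 0.13 ± 0.15). The low Chd3 probe, the low Chd4 probes and Hmg20b shared an order over the replicates, with replicates 2 and 4 the lowest and replicate 1 the highest. Rbbp4 probe A_52_P296810 had that order too. How many of all probes have it was not counted.

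**Figure D2:**
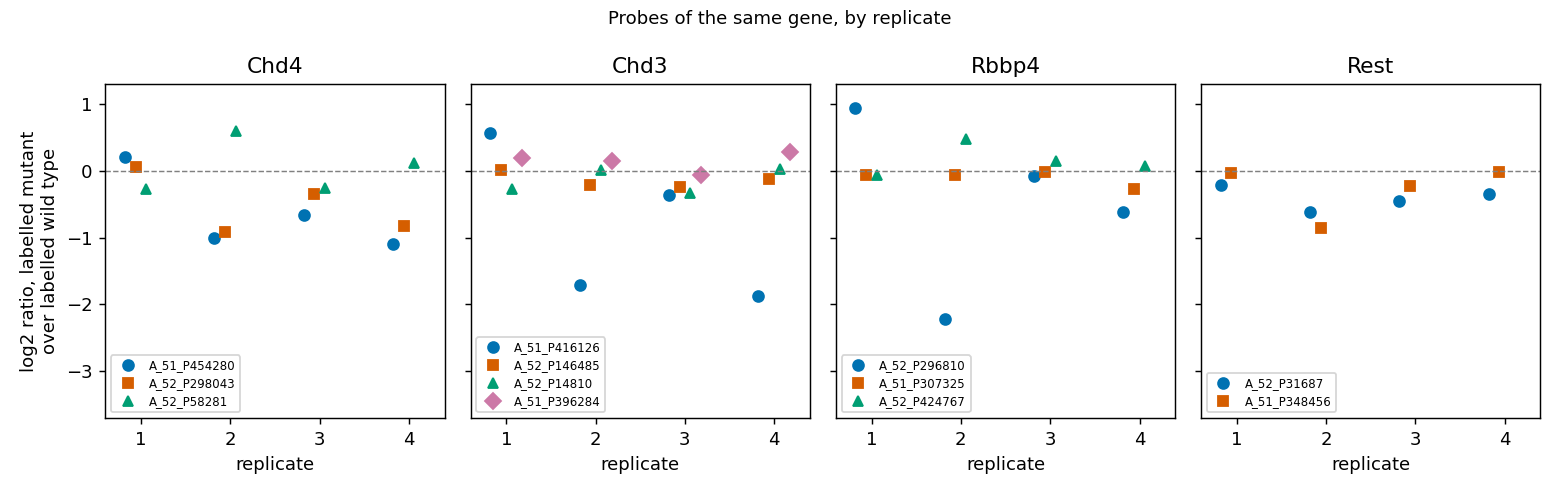
Log2 ratio (labelled mutant over labelled wild type, y axis) in replicates 1 to 4 (x axis) for every probe of Chd4, Chd3, Rbbp4 and Rest, with 1 marker shape per probe. Probes of a gene lie furthest apart in replicates 2 and 4 for Chd4 and Chd3 and in replicates 1 and 2 for Rbbp4, while both Rest probes stay below 0.

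The Mta proteins are the scaffolds of NuRD that bind the deacetylases. Mta2 probe A_52_P43972 was the only member probe above 0 with an unadjusted p under 0.05. It read 0.25, 0.80, 0.14 and 0.22 (mean 0.35 ± 0.30, SD, n = 4; unadjusted p = 0.0433, limma adjusted p = 0.757). All 4 replicates were above 0 and replicate 2 was far above the rest; without it the mean was 0.20 (limma unadjusted p = 0.038). Without replicate 1, 3 or 4 the p was above 0.05, with 0.0799 the largest. After background correction by normexp and loess normalization the mean was 0.18 (unadjusted p = 0.162), and the labelled mutant was then the lower in replicate 3. The other Mta2 probe had a mean of 0.10 ± 0.15 (SD, n = 4). Mta1 stood at -0.03, and the Mta3 probes at 0.14 and 0.02.

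The methyl-CpG binding domain proteins, which take alternative places in NuRD, were near 0, with Mbd2 at 0.02 ± 0.35 and Mbd3 at 0.06 ± 0.37 (SD, n = 4 each). Gatad2a, which links them to the ATPase, had probe means of 0.12 and -0.01. Its relative Gatad2b read -0.21, 0.22, -0.33 and -0.44 (mean -0.19 ± 0.29, SD, n = 4). Replicate 2 alone was above 0, and without it the mean was -0.33. Over the 21 NuRD probes, Rbbp4 and Rbbp7 included, 11 means were above 0 and 10 below, and the median was 0.02 ± 0.10 (SD over 4 replicates), the same as over all probes.

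Sin3a and Sin3b are the scaffolds of the Sin3 complex. Sin3a read -0.07, 0.21, -0.16 and -0.07 (mean -0.02 ± 0.16, SD, n = 4), and the Sin3b probes had means of -0.17 and -0.05. Suds3, a subunit that joins the deacetylase to Sin3, had a probe (A_52_P579876) that read -0.42, -0.61, -0.41 and 0.02. Its mean was -0.36 ± 0.26 (SD, n = 4; unadjusted p = 0.0314, limma adjusted p = 0.757), with replicate 4 alone above 0. Without replicate 1, 2 or 3 limma's unadjusted p was above 0.05, with 0.11 the largest. The second Suds3 probe did not share this and stood at 0.08 ± 0.39 (SD, n = 4). The mean over both was -0.14.

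Sap30 and Sap18 are small subunits that bridge Sin3 to other proteins. Sap30 read 0.30, 0.89, 0.36 and -0.22 (mean 0.33 ± 0.45, SD, n = 4; unadjusted p = 0.117), the second highest mean of the members' probes after Mta2. That mean was 0.15 without replicate 2 and 0.52 without replicate 4 (limma unadjusted p = 0.312 and 0.0285). The Sap18 probes had means of 0.15, 0.04 and -0.01. Brms1l read 0.09, 0.69, 0.19 and 0.07 in probe A_51_P243623 (mean 0.26 ± 0.29, SD, n = 4; unadjusted p = 0.102) and had a mean of 0.15 in the other. All 4 values of that first probe were above 0, with replicate 2 the highest, and without it the mean was 0.12. Its relative Brms1 stood at -0.02 and 0.00.

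Ing1 and Ing2 are readers of methylated histone H3, and Arid4a and Arid4b bind the retinoblastoma protein. The Ing1 probes had means of -0.14 and -0.02. Ing2 probe A_52_P266459 was the most even of all, at -0.13, -0.13, -0.06 and -0.15 (mean -0.12 ± 0.04, SD, n = 4), yet the orientation means were -0.39 with the labelled mutant in Cy5 and 0.15 with it in Cy3. The other Ing2 probes stood at -0.13 and 0.03. Arid4a had means of -0.17 and 0.04, and Arid4b of -0.09 and -0.01.

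Rbbp4 and Rbbp7 are histone-binding proteins shared by Sin3 and NuRD. Rbbp4 probe A_52_P296810 had the widest spread of all member probes, at 0.94, -2.21, -0.08 and -0.62 (mean -0.49 ± 1.31, SD, n = 4). The low value came from the RNA labelled wild type of replicate 2, whose log2 signal was 14.70, against 12.06 to 12.20 in the other 3. Both dye orientations of that replicate showed it (-2.25 and -2.16). Without replicate 2 the mean of this probe was 0.08. The other Rbbp4 probes varied far less. Probe A_51_P307325 read -0.06, -0.07, -0.02 and -0.28 (mean -0.11 ± 0.12, SD, n = 4), and A_52_P424767 read -0.07, 0.48, 0.14 and 0.07 (mean 0.16 ± 0.23). Rbbp7 stood at 0.17 ± 0.30 (SD, n = 4). Over the 26 Sin3 probes 15 means were below 0 and 11 above, and the median was -0.01 ± 0.13 (SD over 4 replicates).

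Ncor1, the nuclear receptor corepressor, was the only NCoR member. Its 3 probes had means of -0.22, -0.17 and -0.11. Probe A_52_P487598 read 0.10, -0.09, -0.19 and -0.69 (mean -0.22 ± 0.33, SD, n = 4; unadjusted p = 0.185). Replicate 4 was the lowest for this probe, but the highest for the other Ncor1 probes (0.12 and 0.20). Without replicate 4 the mean of A_52_P487598 was -0.06. The median over the 3 probes was -0.17 ± 0.15 (SD over 4 replicates).

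Counted over probes, 34 of the 57 means were below 0 (59.6%), against 46% of all probes. Below 0 in all 4 replicates were 6 member probes, of Rest, Hmg20b, Ing2 and Rbbp4 (background 5.63%), and above 0 in all 4 were 2, of Mta2 and Brms1l (background 10.7%). A mean of at least 1.4-fold from 0, the fold in the name of the authors' deposited table, was reached by 5 member probes (background 3.34%): Hmg20b, the low Chd3 probe, the pair of low Chd4 probes and the wide Rbbp4 probe. Of these, Hmg20b and the pair of Chd4 probes also had an unadjusted p under 0.05 (3 of 57, background 2.12%). Without replicate 2 only 1 member probe met both limits (background 1.70%), and without replicate 1 there were 4 (background 4.02%). Without replicate 3 there was 1 (1.64%), without replicate 4 there were 2 (2.57%), and with a one-sample t statistic 0 (1.07%). With normexp and loess 2 met both (0.762%), with 8 arrays and the replicate block 4 (2.42%), and with array weights 2 (3.75%). With the labelled mutant in Cy5 only there was 1 (3.16%), and in Cy3 only 3 (4.17%). At 1 probe per gene 2 of 30 met both (1.98%), and on gene means 1 of 30 (1.85%). Counted in either direction, 8 member probes had 1 sign in all 4 replicates (14%, background 16.3%). An SD over 0.4 was seen in 10 (17.5%, background 24.1%). Unlike the members, the background probes included some not well above background in both channels on every array. Averaged over probes, 20 genes were below 0 and 10 above. The counts were the same without replicate 2, but the genes were not. Rcor3, Mbd2 and Mbd3 were then below 0, at -0.21, -0.15 and -0.08. Phf21a and Rcor2 were then above 0, at 0.03 and 0.08, and Rbbp4 went from -0.15 to about 0. Over the whole array, at 1 probe per gene or unnamed entry, 14680 were below 0 and 16505 above. The share over gene means of the whole array was not computed. Gene means were below 0 in all 4 replicates for Hmg20b, Rest, Ncor1 and Chd4 (background 5.45%) and above 0 for Mta2 (background 10.4%). Some of these means join probes that disagree. Replicate 1 of Chd4 was at -0.01, from probes at 0.21, 0.05 and -0.28. Replicate 4 of Ncor1 was at -0.12, from probes at -0.69, 0.12 and 0.20. The backgrounds of gene means are over 31185 units. These are named genes, and also accessions or probes without a symbol. In the fit on gene means Chd4 stood at -0.37, Rest at -0.35 and Hmg20b at -0.76. All had an unadjusted p under 0.05 (3 of 30, background 5.72%) and a limma adjusted p of 0.696 or more. Hmg20b has 1 probe, so its gene mean repeats that probe. The Chd4 mean joins probes at -0.64, -0.51 and 0.04.

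Of the 20 members with over 1 probe, 9 had probe means of opposite sign. The 3 with the widest range were Chd3 (0.98), Chd4 (0.68) and Rbbp4 (0.65). Probe positions within the transcripts are not given in the sources used here. The median SD over replicates was 0.28 for member probes and 0.26 for all probes, and 0.18 and 0.14 without replicate 2. A member probe's highest or lowest value fell in replicate 2 for 39 of the 57 (68.4%, against 77.4% of all probes). For replicates 1, 3 and 4 the counts were 27 (47.4%, against 49.3%), 14 (24.6%, against 26.6%) and 34 (59.6%, against 46.7%).

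**Figure D3:**
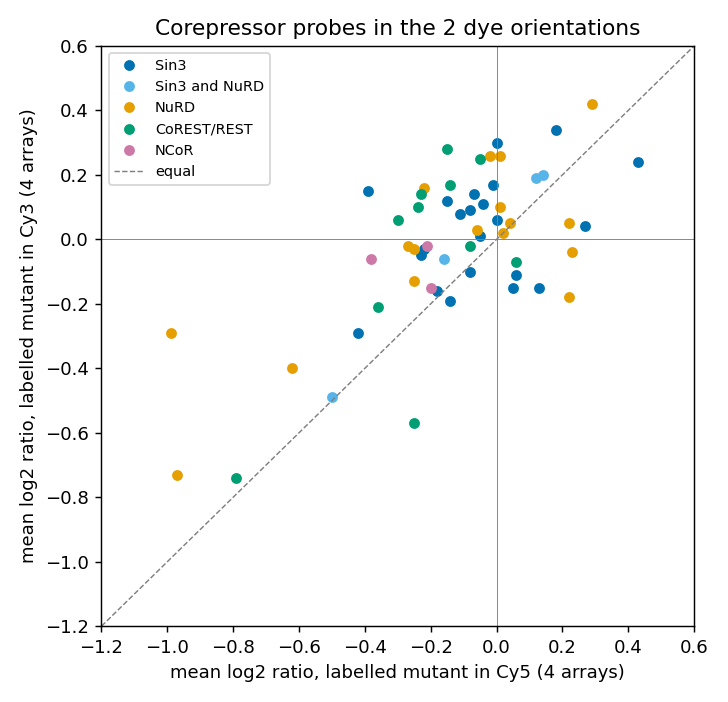
Mean log2 ratio of each member probe (labelled mutant over labelled wild type) with the labelled mutant in Cy5 (x axis) against the mean with it in Cy3 (y axis), 4 arrays each. Hmg20b lies near the diagonal at -0.79 and -0.74, and more probes lie above the diagonal (45 of 57) than under it.

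The dye orientations were compared, since each mean joins both. The orientation means of Hmg20b were -0.79 with the labelled mutant in Cy5 and -0.74 with it in Cy3, close to each other. Rest probe A_52_P31687 stood at -0.25 and -0.57. In Cy5 its arrays read 0.13, -1.08, 0.03 and -0.10, which span 0, and in Cy3 -0.56, -0.16, -0.96 and -0.60, all below 0. Chd4 probe A_51_P454280 stood at -0.99 and -0.29. Over the members, 32 of 57 probes had the same sign in both orientations (56.1%, against 57.9% of all probes). In 45 the Cy5 mean was the lower (78.9%, against 48.1%). All member probes were well above background in both channels on all 8 arrays, which the probes behind these shares need not be. Over the whole array 31048 probes were tested at that stricter filter, and the shares were not computed over those alone.

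**Figure D4:**
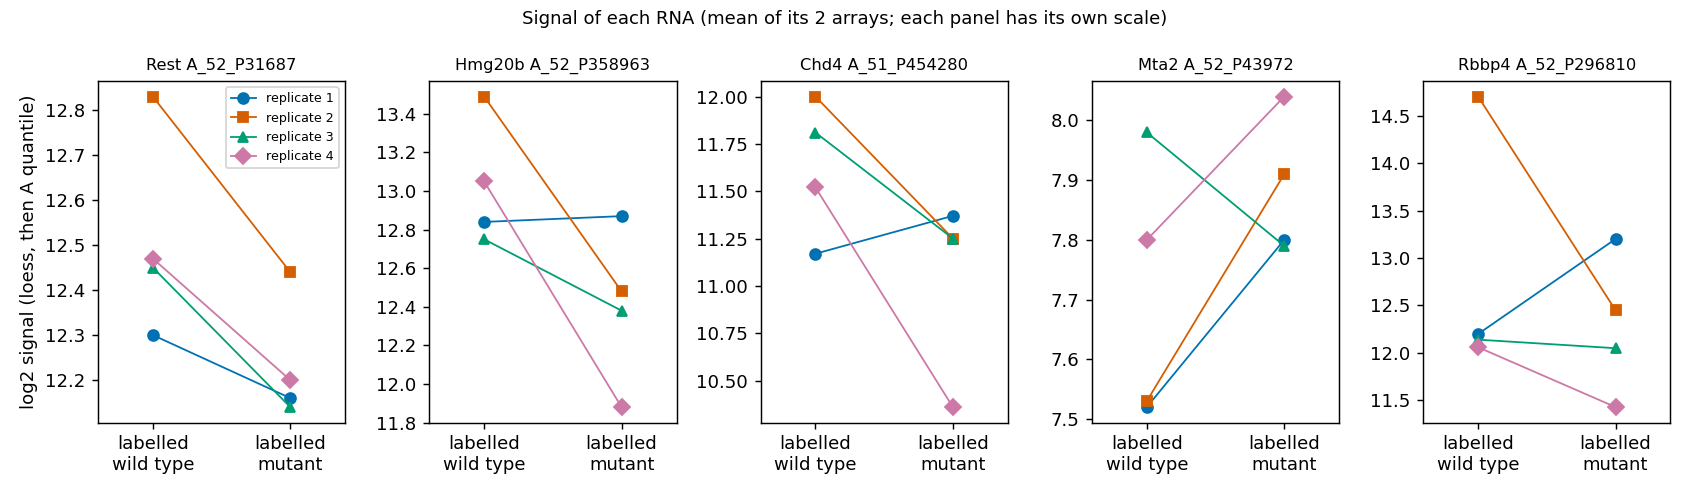
Log2 signal (loess within arrays, then Aquantile between arrays) of the RNA labelled mutant and the RNA labelled wild type in each replicate for 1 probe each of Rest, Hmg20b, Chd4, Mta2 and Rbbp4, with 1 line per replicate joining the pair. Each panel has its own scale. The ranges of the labels overlap in every panel, and the pairs slope down in all 4 replicates of Rest.

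Other genes of the same pathway were read from lists. Of 31 further subunits and partners of the complexes, such as Tbl1x and Ctbp1, none passed limma's adjusted test and none had an unadjusted p under 0.05; 20 were above 0 and 11 below, with a median of 0.03. Sap30l had the smallest p in that list, at -0.24 ± 0.28 (SD, n = 4; unadjusted p = 0.116). Of 29 DNA-binding factors that recruit the complexes, 18 were below 0 and 11 above (median -0.08). Sall3, which recruits NuRD, had the one unadjusted p under 0.05, at 0.60, 2.19, 0.52 and 0.39 (mean 0.92 ± 0.85, SD, n = 4). The RNA labelled wild type was well above background for this probe on 6 of the 8 arrays. Its ratio after loess was 0.32, and its other probe stood at -0.14. For the whole array, 1 probe was taken for each of 31185 units, which are named genes, and accessions or probes without a symbol. Over these the median was 0.01 and 5.62% had a limma unadjusted p under 0.05.

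Of 27 targets of REST, 14 were above 0 and 12 below, with a median of 0.01. None passed limma's adjusted test, and 3 had an unadjusted p under 0.05. Calb1 read 0.69, 0.55, 0.99 and 0.90 (mean 0.78 ± 0.20, SD, n = 4; limma adjusted p = 0.194). It is also a marker of the ureteric bud. Stmn2, a tubulin-binding protein of growing neurons, read -0.71, -0.26, -0.83 and -1.05 (mean -0.71 ± 0.33, SD, n = 4; limma adjusted p = 0.444). Syt1, a synaptic vesicle protein, stood at -0.44 ± 0.26 (SD, n = 4), with its probes ranging from -0.76 to 0.30. Of these 3 targets 1 was above 0 and 2 below.

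Markers of the cell types that a kidney rudiment can hold were read beside the members. Of 10 ureteric bud markers 7 had an unadjusted p under 0.05, all higher in the RNA labelled mutant. Over the whole array, at 1 probe per gene or unnamed entry, 5.62% had such a p. The list median was 0.42, with Krt18 at 1.14 ± 0.20 and Krt8 at 0.96 ± 0.13 (SD, n = 4 each). Ret at -0.05 and Wnt9b at -0.13 were below 0. The mean log2 signal of the 10 markers ran from 11.72 to 11.88 in the RNA labelled mutant. In the other RNA it ran from 11.26 to 11.65, which does not overlap. Macrophage markers (6, median -0.30, 3 lower at that p) ran from 9.17 to 9.49 and from 9.43 to 9.72. Stroma markers (6, median -0.21, 2 lower) ran from 12.54 to 12.63 and from 12.59 to 12.85, and nephron progenitor markers (8, median -0.10, 1 lower, Wt1 at -0.29) from 11.72 to 11.90 and from 11.81 to 12.05. Endothelial (5, median 0.05), erythroid (5, median -0.05) and neuronal markers (5, median -0.04) had 1, 0 and 1 gene at that p. Each marker of the ureteric bud, macrophages, stroma and progenitors that was read was well above background on all 8 arrays. The part of these cell types in the ratios of Rest, Hmg20b or Chd4 was not tested.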

How the data were processed

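Spots of the two-colour Agilent arrays were extracted with Feature Extraction 10.5.1.1, per the file headers. A deposited log10 ratio per spot sets its Cy5 (red) processed signal over that of Cy3 (green). The deposited intensity columns hold processed signals (background-subtracted and dye-normalized) and median spot and background brightness. The deposited flags are 0 or 1, a unit of their own. The authors' deposited table holds 496 log2 ratios, and it names 0 members. The series text puts dye swaps on 2 of 4 arrays, while the labels show one in each of the 4 replicates.

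Each array held 45018 spots, 1639 of them controls. Log ratios were made log2 and turned to labelled mutant over labelled wild type. Outlier spots were left out, spots of a probe averaged, then the 2 orientations of a replicate. A probe was kept if 4 or more of the 8 arrays had it well above background in either channel. limma 3.58.1 in R 4.3.3 tested the 4 ratios against 0 (two-sided, Benjamini-Hochberg over all probes, threshold 0.05), which 4 replicates limit in precision; the exact sign-flip test cannot go below 0.125. Both RNAs of a replicate share their arrays, so the ratio keeps the pairing. Channel signals came from normexp (offset 50), loess and Aquantile. Accessions of 25097 probes matched a RefSeq symbol (GRCm38.p6, for names). The fit was tested on simulated data. Alternatives changed normalization, filter, weights, blocks, dye, probes and replicates.

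The members and lists were chosen with earlier results of these data known. Every member is named; replicate values are given for the 12 member probes of smallest p, the smallest of each complex, Sin3a, Chd4, Kdm1a, Rest and Ncor1, and the 3 genes whose probes differ most, and up to 3 genes of each other list by p. The genes Kdm5a, Mideas, Tet1, Zbtb16, Unc13a, Vgf, Cd68 and Sox10 were not analysed here, and Scn3b did not pass the filter.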

Additional observations from a re-analysis of the deposited data

Results flagged for a closer look

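Among 58 probes (the 57 of the members and that of Hdac2), 4 had 1 replicate far from the other 3, by Dixon's criterion for 4 samples; chance marks about 1 in 20 such groups. Replicate 2 was the one apart in the Mta2 probe A_52_P43972, at 0.80 against 0.14 to 0.25. It was also apart for Mbd2, at 0.55 against -0.17 to -0.13. The same replicate of an Ing2 probe, A_51_P503751, read 0.34 against -0.11 to -0.05. For Hdac2 replicate 4 was apart, at -0.61 against 0.60 to 0.74.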

How the results depend on the processing

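No member probe passed the adjusted threshold under any alternative run; the smallest adjusted p of a member was 0.0508 within slide 2 and 0.0597 with array weights, and member probes at an unadjusted p under 0.05 ran from 0 within slide 1 (1.90% of all probes) to 11 of 57 with array weights (19.3%, against 18.9% of all probes). The count over all probes was 7 and depended on the setting. It was 1 with normexp and loess, 2 with no filter, 13 with probes well above background in both channels on 8 of 8 arrays, 133 with 8 arrays and the replicate block (consensus correlation 0.299; 7 member probes, 12.3%, at an unadjusted p under 0.05, against 7.63% of all probes), 453 with array weights, 1 with slide as a block, 0 within slide 1, 452 within slide 2, 1 with the labelled mutant in Cy5 only, 36 in Cy3 only and 0 with a one-sample t statistic (2101 probes, 5.32%, at an unadjusted p under 0.05, and 2 member probes, 3.51%). Leaving out 1 replicate gave 0 to 10 calls: 10 without replicate 2 and 0 without each of the others. The cause of these differences was not tested. The median of the CoREST/REST members was -0.23 with the labelled mutant in Cy5 only and 0.06 in Cy3 only, against -0.05 over both; the Sin3 median was likewise -0.06 and 0.05, and that of NuRD -0.02 and 0.02. Ncor1 probe A_52_P487598 went from -0.22 to 0.00 within slide 1, just above 0. Rest probe A_52_P31687 was below 0 in all 18 alternatives, from -0.57 to -0.25, with an unadjusted p under 0.05 in 16. Hmg20b was below 0 in 18, from -0.96 to -0.58, with such a p in 15. Both probes were picked by their small p, and every replicate of each was below 0. Runs that left out or weighted replicates, or kept 1 slide, could therefore not change the sign. Changes of filter, block or statistic kept the same mean. In the run on gene means, the Rest value joins both of its probes.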

Other observations

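Some values of the members belong to no comparison above. The means near 0 of some members hold replicates of opposite sign: Arid4b probe A_52_P178393 read 0.36, 0.16, 0.02 and -0.89, and Brms1 probe A_51_P154997 read -0.39, -0.10, -0.03 and 0.53. Brms1l probe A_52_P377703 read 0.48, 0.42, 0.21 and -0.49, so that replicate 4 alone was below 0. Mta3 probe A_52_P119393 had a mean of 0.22 with the labelled mutant in Cy5 and -0.18 with it in Cy3, beside 0.02 over both.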
